A study of Mus musculus with 12 samples.

Results

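Nuclear receptors are transcription factors that bind small fat-soluble molecules, such as steroid and thyroid hormones, retinoids, bile acids and fatty acids, and carry that signal directly to DNA. The genes were taken from a list of 36 mouse nuclear receptors, and a gene was measured where the array annotation gave a probe set that symbol alone. By that rule 35 of the 36 were measured, among 18193 genes in all. The exception was Nr1h2, an oxysterol receptor, which was not analysed here. Where a gene had several probe sets, as 21 of the 35 had, the one with the highest mean over all arrays stood for it.

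A nuclear receptor carries a DNA-binding domain of zinc fingers and, in most members, a pocket for its ligand, and many bind DNA as partners of a retinoid X receptor. In liver they set bile acid synthesis, drug clearance, fat oxidation and glucose output, and in lung the glucocorticoid and retinoid receptors are known for their part in maturation and alveolar growth. Pregnancy raises the circulating level of several of their ligands, among them oestrogens, progesterone and glucocorticoids.

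Expression was measured with Affymetrix mouse arrays in whole lung and whole liver of female NOD/SCID mice, aged between 8 and 10 weeks when the experiments began. The animals were either virgin or at day 16 of gestation, and equal amounts of RNA from 2 mice were pooled for each array. Each of the 4 groups (virgin lung, pregnant lung, virgin liver, pregnant liver) held 3 arrays, so the p-values here rest on how far pools differed, and precision is limited by how few arrays there are. All the mice shared the NOD/SCID background, which lacks mature T and B cells, so these values describe receptors in tissue without those cells. In whole tissue, fewer cells of a type and less RNA per cell cannot be told apart.

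The promoters of 4 receptors whose values the results turn on are shown here because nuclear receptors also regulate each other through short DNA elements. Each sequence runs from 250 bases before the transcription start to 50 after it, 5′ to 3′ on the strand of the gene, as RefSeq gives it for GRCm38.p6. Capitals mark matches, on either strand, to the hexamer AGGTCA, its close variant GGGTCA, the related hexamer AGTTCA and its own variant GGTTCA, which these receptors favour, or to TCAAGG, the core of the element bound by NR5A receptors, and in Rarb they also cover the spacer of a repeat. The motifs were chosen after the sequences had been seen. Nr0b2 lies at chr4:133553126-133553425 on the plus strand, Nr2f2 at chr7:70366697-70366996 on the minus strand, Nr3c2 at chr8:76902080-76902379 on the plus strand and Rarb at chr14:16575427-16575726 on the minus strand.
Nr0b2: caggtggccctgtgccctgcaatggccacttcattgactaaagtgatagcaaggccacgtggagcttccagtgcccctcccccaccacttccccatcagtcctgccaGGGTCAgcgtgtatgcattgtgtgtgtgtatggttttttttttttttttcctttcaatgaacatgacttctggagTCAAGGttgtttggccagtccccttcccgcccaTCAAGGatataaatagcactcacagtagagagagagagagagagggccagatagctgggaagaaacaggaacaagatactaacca
Nr2f2: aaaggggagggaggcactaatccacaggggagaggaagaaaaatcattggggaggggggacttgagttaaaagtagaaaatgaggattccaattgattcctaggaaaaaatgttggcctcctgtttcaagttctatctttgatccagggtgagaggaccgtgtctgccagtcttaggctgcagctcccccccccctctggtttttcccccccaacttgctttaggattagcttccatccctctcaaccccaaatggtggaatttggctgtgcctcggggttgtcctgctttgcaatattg
Nr3c2: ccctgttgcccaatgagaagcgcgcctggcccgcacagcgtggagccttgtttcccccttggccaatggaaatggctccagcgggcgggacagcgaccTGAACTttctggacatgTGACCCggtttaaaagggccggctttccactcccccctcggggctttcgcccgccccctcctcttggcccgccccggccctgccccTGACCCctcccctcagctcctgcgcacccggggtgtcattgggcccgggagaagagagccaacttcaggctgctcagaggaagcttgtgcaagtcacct
Rarb: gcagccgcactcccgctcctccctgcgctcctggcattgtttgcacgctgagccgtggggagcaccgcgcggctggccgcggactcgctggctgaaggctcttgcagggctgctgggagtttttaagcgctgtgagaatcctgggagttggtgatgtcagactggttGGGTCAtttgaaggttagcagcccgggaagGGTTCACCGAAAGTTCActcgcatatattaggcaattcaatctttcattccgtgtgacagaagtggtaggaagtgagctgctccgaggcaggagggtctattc
The Nr0b2 window held TCAAGG at 68 and at 35 bases before the start, and 1 hexamer at 143. That of Rarb held the spaced repeat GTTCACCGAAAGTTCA at 52 bases before the start, the spacing typical of retinoic acid response elements. The Nr3c2 window held 3 hexamers, at 152, 135 and 49 bases before the start, and that of Nr2f2 held none of these letters.

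Promoter entries matched 32 of the 35 measured receptors. At least 1 hexamer was present in 43.8% of the 48 promoters listed for them and in 43.7% of all 32851 promoters of the same length. TCAAGG was present in 12.5% of the receptor promoters against 14.4% of all. The spaced repeat (GTTCANNNNNNGTTCA or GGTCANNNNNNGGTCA, either strand, overlaps with the hexamers allowed) was present in 0.177% of all promoters and in 1 receptor promoter, that of Rarb. A match describes letters in the window and is not a measured binding site.

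The arrays were alike in scale, with medians from 4.49 to 4.56 on the log2 scale. Correlations within a group ran from 0.9917 to 0.9961 and between tissues from 0.8403 to 0.8528. The labelled tissues matched their markers: the summed linear signal of 12 lung epithelium genes was 106800 to 113500 in lung and 264 to 293.3 in liver, and that of 11 hepatocyte genes was 153500 to 157000 in liver and 396.9 to 555.4 in lung. The poly-A control transcripts added during labelling averaged 11.84 to 12.34 on 10 arrays but 4.95 on virgin liver pool 3 and 5.33 on pregnant liver pool 3. These 2 arrays, 1 in each liver group, therefore stand apart, and the liver changes that gained or lost a call without them are given both ways.

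Where each receptor is expressed was asked first in animals that were not pregnant. A difference is given as lung minus liver on the log2 scale, and a gene passed the test where the limma p, adjusted by Benjamini-Hochberg over all genes, was under 0.05. Between virgin lung and virgin liver, 28 of the 35 receptors passed (80%), against 68.7% of all genes: 9 were higher in lung (34.3% of all genes) and 19 in liver (34.4%). The median over the receptors was -0.55, and over all genes it was -0.07. The median of all probe sets, 4.528, served as a mark below which a signal above background was not shown. By that mark 25 receptors were above it in both virgin tissues, 6 in liver alone (Nr1h4, Nr1i2, Nr1i3, Thrb, Rxrg and Nr5a2) and 2 in lung alone (Pgr and Nr2f1). The remaining 2, Vdr and Hnf4g, were below it in both.

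**Figure D1:**
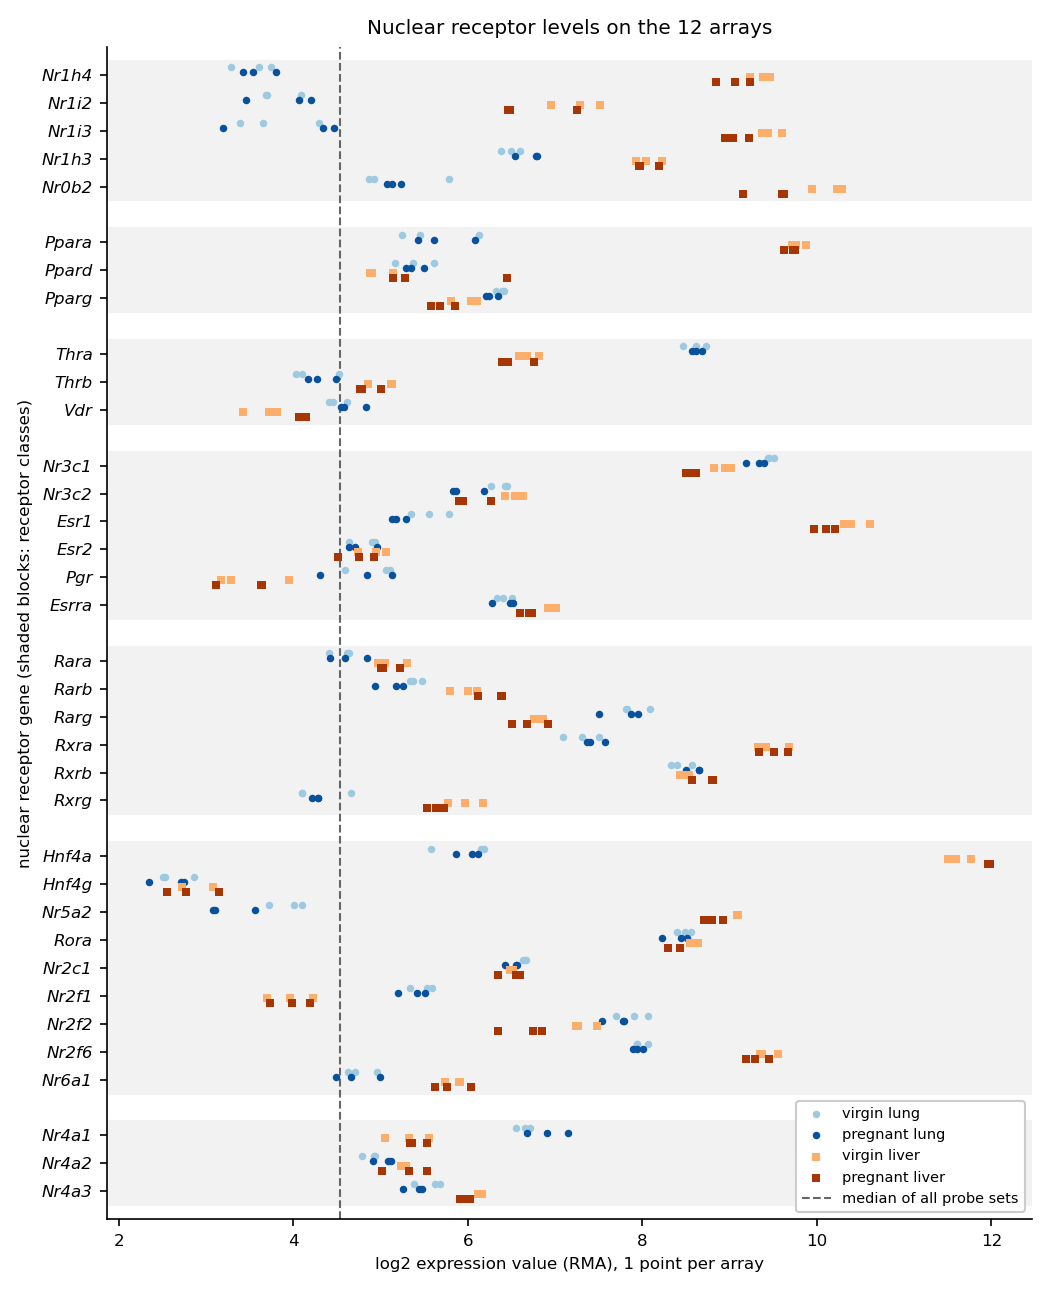
Level of each of the 35 nuclear receptors on the 12 arrays, as log2 expression value on the horizontal axis, with 1 point per array coloured by group and the genes blocked by receptor class. Bile acid and drug sensors sit near or below the dashed median of all probe sets (4.528) in lung and well above it in liver, while Thra, Nr2f1, Nr4a1 and Rarg sit higher in lung.

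The 8 receptors with the greatest excess in liver are described first. Nr1h4, the bile acid receptor FXR, read 9.39, 9.46 and 9.24 on the virgin liver arrays and 3.29, 3.74 and 3.60 on the virgin lung arrays, a difference of -5.82 ± 0.14 (SE, adjusted p = 5.63e-14). Nr1i3, the drug-sensing receptor CAR, differed by -5.69 ± 0.28. Hnf4a, which maintains the hepatocyte programme, differed by -5.65 ± 0.14, and Nr5a2 (LRH-1), which drives bile acid synthesis genes, by -5.15 ± 0.13. Nr0b2 (SHP), the corepressor that FXR induces, differed by -4.96 ± 0.21. Oestrogen receptor alpha, Esr1, differed by -4.88 ± 0.12, and Ppara, the receptor of fatty acid oxidation, by -4.18 ± 0.20. Nr1i2, the drug sensor PXR, followed at -3.43 ± 0.23. For Nr1h4, Nr1i3, Nr5a2 and Nr1i2 the lung values lay below the mark, so those differences are against a level not shown to be above background, as is that of Rxrg in the next paragraph and that of Thrb.

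Smaller excesses in liver were found for the retinoid X receptors Rxra (-2.18) and Rxrg (-1.68), for Nr1h3, the oxysterol receptor LXR alpha (-1.58), and for the orphan receptors Nr2f6 (-1.45) and Nr6a1 (-1.08). The 6 other receptors that were higher in liver differed by -0.82 (Thrb) to -0.39 (Nr4a2). The 9 receptors higher in lung included Thra, thyroid hormone receptor alpha, at 1.91 ± 0.11, Nr2f1 (COUP-TFI) at 1.52 ± 0.15, the progesterone receptor Pgr at 1.45 ± 0.24, Nr4a1 at 1.33 ± 0.14 and the retinoic acid receptor Rarg at 1.11 ± 0.13. The other 4 were Vdr (0.84), Nr2f2 (0.56), Nr3c1 (0.53) and Pparg (0.39). For Vdr, below the mark in both tissues, the other probe set gave 0.01 (adjusted p = 0.968). The thyroid hormone receptors thus ran opposite ways between the tissues, Thra higher in lung and Thrb higher in liver. Probe sets disagreed for the orphan receptor Nr4a2, where 3 of 5 further probe sets were called in the opposite direction, and for its relative Nr4a3 and for Pgr, where 1 of 2 was. The tissue direction of Nr4a2 and Nr4a3 therefore depends on the probe set. For Pgr the opposite probe set read 2.37 in virgin lung and 2.63 in virgin liver. Both further probe sets of Pgr lay below the mark, so its direction rests on the probe set used. The 7 receptors that did not pass were Ppard, Nr3c2, Esr2, Rxrb, Hnf4g, Rora and Nr2c1, with differences between -0.33 and 0.41. Further probe sets of some of them did pass. A further one of Ppard gave -0.49 (adjusted p = 0.0089), opposite in sign to the 0.41 of the probe set used. For Nr2c1 one gave -0.80 (adjusted p = 1.24e-06) and another 0.62 (0.0143). For Rora 4 of 8 were higher in liver, and for Hnf4g 1 of 2, below the mark.

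The question of whether pregnancy altered the receptors was then asked in each tissue. In liver 5 of the 35 passed the test, 1 higher (Vdr) and 4 lower (Nr0b2, Nr2f2, Nr3c1 and Nr3c2) in pregnant animals. That is 14.3% of the receptors, close to the 13.6% of all genes that passed, so the receptors were not called more often than genes in general. By direction the shares over all genes were 6.02% higher and 7.62% lower. The median change was -0.14 over the receptors and -0.01 over all genes, and 25 of the 35 had a negative change. The 3 pregnant and 3 virgin arrays did not overlap for 15 receptors, 4 higher and 11 lower, where 28% of all genes did not overlap, 12.7% higher and 15.3% lower. The count of 5 became 3 without both liver arrays that lacked the control transcripts, 2 without virgin pool 1 and 3 without virgin pool 2.

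In lung 1 receptor of 35 passed, Nr5a2, which was lower. All genes passed in 0.594% of cases, 0.258% higher and 0.335% lower. The median change over the receptors was -0.03 and over all genes -0.01. The arrays of the pregnant and virgin groups did not overlap for 6 receptors, all lower in pregnant lung, where 18.4% of all genes did not overlap, 8.06% higher and 10.4% lower. For the difference between the change in lung and that in liver, 1 receptor passed, Rarb, where 6.71% of all genes did, 3.34% upward in lung relative to liver and 3.37% downward.

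**Figure D2:**
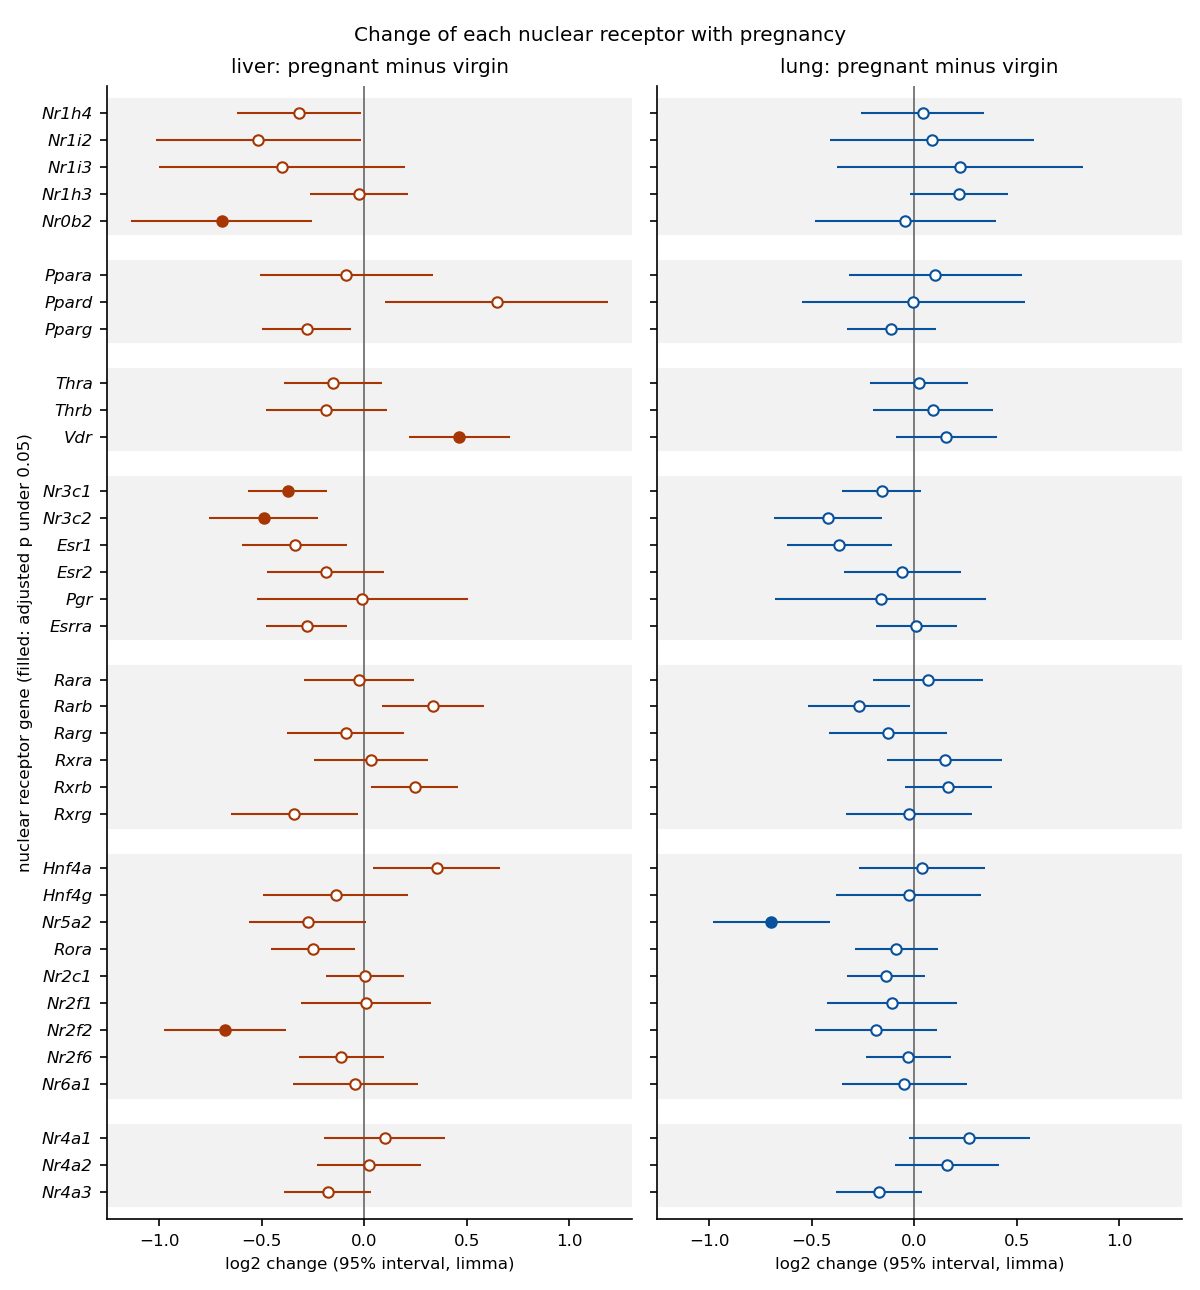
Log2 change from virgin to pregnant for each receptor in liver (left) and lung (right), with 95% intervals from limma. Filled points passed an adjusted p under 0.05: Nr0b2, Nr2f2, Nr3c1, Nr3c2 and Vdr in liver and Nr5a2 in lung, and the liver points lie mostly left of 0.

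Among the sensors of bile acids, drugs and oxysterols, Nr0b2 was the 1 of 5 that passed in liver. Its log2 values were 10.23, 10.29 and 9.95 in virgin and 9.60, 9.62 and 9.16 in pregnant liver. Every pregnant array lay below every virgin array, and pool 3 was the lowest of both groups. Nr0b2 fell 1.62-fold, a log2 change of -0.70 ± 0.21 (SE, n = 3 per group, adjusted p = 0.0373). The change was -0.65 over pools 1 and 2 (adjusted p = 0.108 without both pool 3 arrays) and -0.79 between the pool 3 arrays. The call was lost in 4 of the 6 fits that each left out 1 array: without virgin pool 1 (adjusted p = 0.101), virgin pool 2 (0.118), pregnant pool 1 (0.0532) or pregnant pool 3 (0.121). Quantile normalization over all arrays (adjusted p = 0.0589) or within tissue (0.054) also lost it. With array weights the adjusted p was 0.0854. In lung Nr0b2 changed by -0.04, with a 95% interval from -0.49 to 0.40.

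The other 4 sensors had negative changes in liver that did not pass. Nr1h4, which induces Nr0b2 when bile acids rise, had a change of -0.32 (interval -0.62 to -0.02, adjusted p = 0.159), which was -0.48 over pools 1 and 2 and 0.00 in pool 3. Nr1i2 had -0.52 (interval -1.01 to -0.02, adjusted p = 0.17), with pregnant pool 1 at 7.25 and the other pregnant pools at 6.46 and 6.48. Without pregnant pool 1 it had -0.77 and passed (adjusted p = 0.0346). Nr1i3 had -0.40 (interval -1.003 to 0.199, adjusted p = 0.401), although its pregnant arrays (9.22, 9.04 and 8.94) all lay below its virgin arrays (9.44, 9.60 and 9.37). Nr1h3 had -0.03 (interval -0.27 to 0.21). The lung changes of these 5 genes ran from -0.04 to 0.22, and none passed.

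None of the 3 peroxisome proliferator-activated receptors, which sense fatty acids, passed in either tissue with all arrays in the fit. Ppard, the widely expressed member, read 4.90, 5.14 and 4.88 in virgin liver and 5.14, 5.28 and 6.44 in pregnant liver. Pregnant pool 3 stood apart from the other pools: the change of 0.65 (adjusted p = 0.114) was 0.19 over pools 1 and 2 and 1.56 between the pool 3 arrays. It passed without pregnant pool 1 (0.89, adjusted p = 0.0381) and with the mean of its probe sets (0.35, adjusted p = 0.0417). The other Ppard probe set by itself gave 0.06 ± 0.14 (adjusted p = 0.856). Pparg, the adipocyte regulator, had -0.28 in liver (interval -0.50 to -0.06, adjusted p = 0.085). That change was -0.44 over pools 1 and 2 and 0.04 in pool 3, and it passed without both pool 3 arrays (adjusted p = 0.0142), without virgin pool 3 (-0.37, 0.0351) or without pregnant pool 3 (-0.35, 0.0419). Ppara had -0.09 (interval -0.51 to 0.33) by the probe set used here, while another of its probe sets gave -0.55 ± 0.13 (adjusted p = 0.0133) and a further one -0.40 (adjusted p = 0.0961). The reading for Ppara in liver therefore depends on the probe set. In lung the 3 changes lay between -0.11 and 0.10.

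Of the thyroid hormone and vitamin D receptors, Vdr rose in liver. Its values were 3.81, 3.42 and 3.72 in virgin and 4.07, 4.13 and 4.15 in pregnant liver. The groups did not overlap, but all 6 values lay below the mark of 4.528. The log2 change was 0.46 ± 0.11 (1.38-fold, adjusted p = 0.0152), and the other Vdr probe set gave 0.00 ± 0.11. With the mean of both probe sets the change was 0.23 (adjusted p = 0.164). It was 0.48 without both pool 3 arrays (adjusted p = 0.0555), and without virgin pool 2 it was 0.35 (adjusted p = 0.0678). Thra, with -0.15 (interval -0.39 to 0.09), and Thrb, with -0.19 (interval -0.48 to 0.11), did not pass in liver. In lung the 3 receptors had changes from 0.02 to 0.16, none past the threshold.

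Steroid receptors and the related Esrra gave 2 of the 5 liver calls, and all 6 had negative changes there. Nr3c1, the glucocorticoid receptor, read 9.02, 8.95 and 8.82 in virgin liver and 8.61, 8.56 and 8.50 in pregnant liver. The spread within each group was smaller than the gap between them. Nr3c1 fell 1.30-fold (log2 change -0.37 ± 0.09, adjusted p = 0.0122), and by -0.40 without both pool 3 arrays (adjusted p = 0.0274). Of its 5 further probe sets, 2 also fell, with changes of -0.47 and -0.58, and the other 3, at levels near the mark, did not pass. Without virgin pool 1 the adjusted p was 0.0531, and with the liver arrays alone it was 0.0558. In lung the change was -0.16 (interval -0.35 to 0.03, adjusted p = 0.619), with pregnant values of 9.19, 9.34 and 9.39 below virgin values of 9.45, 9.51 and 9.44.

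Nr3c2, the mineralocorticoid receptor, binds both aldosterone and glucocorticoids. In liver it read 6.63, 6.42 and 6.54 in virgin and 5.95, 6.27 and 5.90 in pregnant animals. The pregnant arrays lay below the virgin arrays, with pregnant pool 2 the nearest to them. It fell 1.41-fold (log2 change -0.49 ± 0.12, adjusted p = 0.0165). The change was -0.42 over pools 1 and 2 (adjusted p = 0.104 without both pool 3 arrays), and the call was lost without virgin pool 1 (0.0641), pregnant pool 1 (0.0596) or pregnant pool 3 (0.0553). In lung the values were 6.45, 6.43 and 6.26 in virgin and 5.86, 5.83 and 6.19 in pregnant animals. These did not overlap either, and the change was of similar size, -0.42 ± 0.12, but its adjusted p of 0.189 did not pass. The difference between the 2 tissues' changes was 0.07 ± 0.17 (adjusted p = 0.88).

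Esr1 had a change of -0.34 in liver (interval -0.60 to -0.08, adjusted p = 0.0779) and -0.37 in lung (interval -0.62 to -0.11, adjusted p = 0.243). In both tissues its pregnant arrays lay below its virgin arrays: 9.97, 10.21 and 10.11 against 10.39, 10.61 and 10.31 in liver. With the mean of its 3 probe sets the lung change was -0.07 (adjusted p = 0.961), and 1 of the further probe sets had 0.24. That probe set read 3.38 in virgin and 3.62 in pregnant lung. Both further probe sets lay below the mark there, so the lung value rests on the probe set used. Esr1 passed in liver with a variance trend and robust moderation (adjusted p = 0.0477), but not with the mean of its probe sets (0.242). Esrra, an orphan relative that controls mitochondrial genes, had -0.28 in liver (adjusted p = 0.0593) and 0.01 in lung. With dim genes left out of the fit, Esrra passed in liver (adjusted p = 0.0398). Esr2 and Pgr had liver changes of -0.19 and -0.01, and Pgr was below the mark in liver in both states. Intervals for Pgr were wide, from -0.52 to 0.51 in liver and from -0.68 to 0.35 in lung.

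**Figure D3:**
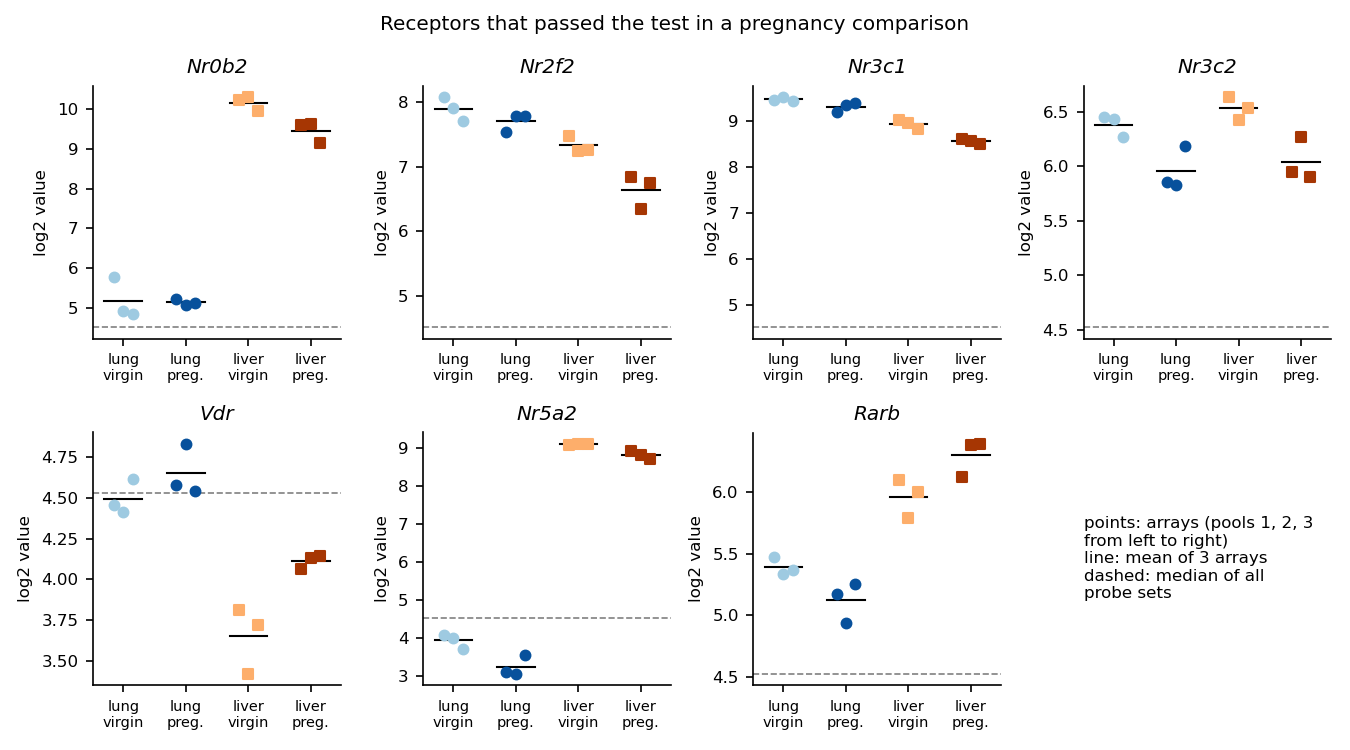
Log2 values on every array for the 7 receptors that passed a pregnancy comparison or the difference between tissues, with 1 panel per gene, the 3 pools of each group as points from left to right and their mean as a line. Nr0b2, Nr2f2, Nr3c1 and Nr3c2 sit lower in all pregnant liver pools, Vdr stays under the dashed median of all probe sets in liver, and so does Nr5a2 in lung.

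No retinoid receptor passed within a tissue, and Rarb passed for the difference between tissues. Rarb is both a retinoic acid receptor and a textbook target of retinoic acid. In liver it read 6.10, 5.79 and 6.003 in virgin and 6.12, 6.38 and 6.39 in pregnant animals, and in lung 5.48, 5.34 and 5.37 in virgin and 5.18, 4.94 and 5.25 in pregnant animals. The pregnant arrays thus lay above the virgin ones in liver and below them in lung. The changes were 0.33 in liver (adjusted p = 0.0732) and -0.27 in lung (adjusted p = 0.431), and their difference, lung minus liver, was -0.61 ± 0.16 (adjusted p = 0.0407). Without pregnant liver pool 1 the liver change passed by itself (0.42, adjusted p = 0.0403). The call for the difference held in 3 of the 12 fits that left out 1 array, with adjusted p up to 0.101 without lung pregnant pool 2, and it was 0.095 without both liver pool 3 arrays.

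The remaining retinoid receptors are the partners and isotypes of the same system. Rxrb, a retinoid X receptor present in most tissues, had 0.25 in liver (adjusted p = 0.122) with arrays that did not overlap, and Rxrg had -0.34 (adjusted p = 0.141), also without overlap. Rxra, the main retinoid X receptor of liver, had 0.03 (interval -0.25 to 0.31), Rara -0.03 and Rarg -0.09. In lung the 5 receptors other than Rarb had changes between -0.13 and 0.17.

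Of the 9 liver-enriched and other orphan receptors, 1 passed in each tissue. Nr2f2 (COUP-TFII), a receptor known for venous endothelium and mesenchyme, read 7.47, 7.24 and 7.26 in virgin liver and 6.84, 6.34 and 6.75 in pregnant liver. The groups did not overlap. Nr2f2 fell 1.60-fold (log2 change -0.68 ± 0.14, adjusted p = 0.00446). The change was -0.77 without both pool 3 arrays (adjusted p = 0.0168), and it passed in all 6 fits that left out 1 array. Among its 5 further probe sets, 3 also fell, by 0.74, 0.91 and 0.65 on the log2 scale, and the other 2 had liver levels below the mark. In lung Nr2f2 had -0.19 (interval -0.49 to 0.11), and the difference between tissues was 0.49 ± 0.20 (adjusted p = 0.169). Its virgin level was higher in lung, as given above.

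Cell markers were set beside Nr2f2 because it is expressed outside hepatocytes. The summed linear signal of 10 endothelial genes was 1442 to 1490 in virgin and 1556 to 1797 in pregnant liver: 1 gene rose (Vwf, 2.48), 1 fell (Kdr, -0.30) and 8 did not pass. That of 12 stellate cell and fibroblast genes was 4685 to 5001 in virgin and 4256 to 4772 in pregnant liver, with 2 that fell (Lrat and Tcf21, -0.47) and 10 that did not pass. The median change in liver was -0.16 over the endothelial genes, although their sum rose, and -0.09 over the stellate cell and fibroblast genes. No marker of either list was below the mark in liver. The part of these cells in the change of Nr2f2 was not tested.

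Nr5a2 was the receptor that fell in lung. It read 4.10, 4.01 and 3.72 in virgin and 3.10, 3.07 and 3.56 in pregnant lung, values that did not overlap but all lay below the mark. The log2 change was -0.70 ± 0.13 (1.62-fold, adjusted p = 0.0349). Its 3 further probe sets had lung changes of -0.00, -0.25 and -0.19 and did not pass. The adjusted p was 0.0903 with the lung arrays alone, and the call was lost without virgin pool 1 (0.112), virgin pool 2 (0.148), pregnant pool 1 (0.131) or pregnant pool 2 (0.131). In liver, where Nr5a2 was well above the mark, the change was -0.28 (interval -0.56 to 0.01, adjusted p = 0.203), with pregnant values of 8.92, 8.80 and 8.71 under virgin values of 9.08, 9.10 and 9.08.

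Hnf4a had a liver change of 0.35 (interval 0.04 to 0.66, adjusted p = 0.129), with pregnant values of 11.98, 11.96 and 11.98 above virgin values of 11.59, 11.50 and 11.77. Its 3 further probe sets had the same sign, and 2 of them rose, by 0.56 ± 0.11 (adjusted p = 0.00385) and 0.44 ± 0.12 (adjusted p = 0.034). Rora, which acts in the circadian clock and in lipid metabolism, had -0.25 (adjusted p = 0.0996), and its probe sets disagreed: 1 further probe set fell by 0.49 and another rose by 0.59, both past the threshold. With the mean of its probe sets Hnf4a passed in liver (0.38, adjusted p = 0.00871). The probe sets that passed thus pointed opposite ways for Rora, but not for Hnf4a. Nr2c1, Nr2f1, Nr2f6, Nr6a1 and Hnf4g had liver changes between -0.14 and 0.01, and Hnf4g was below the mark in all 4 groups. In lung the 8 receptors other than Nr5a2 had changes between -0.19 and 0.04, and Nr2c1 was lower on every pregnant array (-0.14, adjusted p = 0.695).

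**Figure D4:**
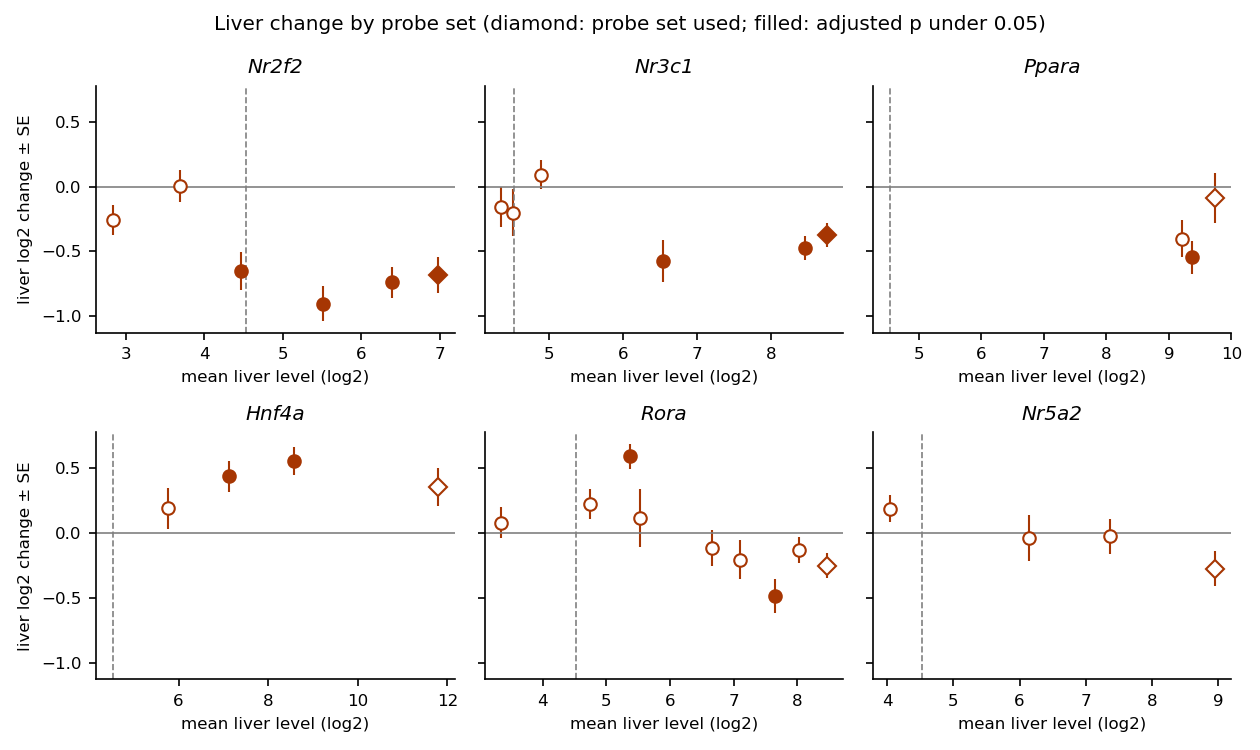
Liver log2 change (vertical axis, ± SE) against mean liver level (horizontal axis) for every probe set of 6 receptors, with diamonds for the probe set used and filled symbols for an adjusted p under 0.05. Brighter probe sets of Nr2f2 and Nr3c1 agree in direction, while Rora has called probe sets on both sides of 0 and the called probe sets of Ppara and Hnf4a are not the ones used.

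The NR4A receptors are immediate early genes that need no known ligand, and none passed in either tissue. Nr4a1 had 0.10 in liver (interval -0.19 to 0.39) and 0.27 in lung (interval -0.03 to 0.56, adjusted p = 0.565). Nr4a2 had 0.02 in liver and 0.16 in lung, and Nr4a3 had -0.18 (adjusted p = 0.268) and -0.17. Other immediate early genes did rise in liver: 5 of 13 passed, led by Egr1 (3.62 ± 0.39) and Fos (2.21 ± 0.33). The summed linear signal of those 13 genes was 1556 to 1684 in virgin and 3060 to 4645 in pregnant liver, and 6729 to 7349 and 7680 to 9497 in lung, where none passed. Fosb and Egr2 were below the mark in liver. Such genes also respond to the handling of tissue, and the part of handling in these values was not tested.

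The genes that these receptors regulate were then counted from 13 lists of known targets, coregulators and further nuclear receptors, which hold 202 genes, 179 of them measured. The lists share genes, since many promoters answer to several receptors. Counts are given for liver against the 6.02% of all genes that rose and the 7.62% that fell, and for lung against 0.258% and 0.335%.

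Bile acid targets gave 1 gene that rose and 2 that fell in liver among 13, and none in lung. Slc10a1, which takes bile acids into hepatocytes, fell by 0.94 ± 0.24 on the log2 scale, and Baat, which conjugates them, fell by 0.75 ± 0.18. Kng1, the kininogen gene that FXR induces, rose by 0.40 ± 0.12. In lung the smallest p were those of Abcb11, the bile salt export pump (0.32, adjusted p = 0.301), and Slc10a1 (0.44, adjusted p = 0.615), both below the mark there. With 1 array left out the liver calls were lost for Slc10a1 (adjusted p up to 0.061, without virgin pool 1), Baat (0.0508, without virgin pool 2) and Kng1 (0.0957, without virgin pool 3), which passed in none of the 6 fits. Without both pool 3 arrays the adjusted p was 0.118 for Slc10a1 and 0.114 for Kng1. The count of 3 became 1 without pregnant pool 3 or any of the virgin pools.

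Targets of the drug sensors fell more often than they rose in liver, 7 against 1 of 16, with a median change of -0.26, and the 8 calls became 5 without virgin pool 1 or pregnant pool 3. Abcc3, an exporter of conjugated drugs and bile acids, fell by 3.18 ± 0.12 on the log2 scale (adjusted p = 8.31e-10), from a mean of 9.72 to 6.54. The cytochromes Cyp2b13 and Cyp2b10, the latter a standard readout of CAR, fell by 1.62 ± 0.25 and 1.17 ± 0.12. Cyp3a16, a cytochrome of the Cyp3a family, rose by 1.64 ± 0.15. Cyp2b and Cyp3a genes are close paralogs, so their probe sets may share signal. In lung Cyp2c29 rose by 0.90 ± 0.17 (adjusted p = 0.0338), from below the mark to just above it. It lost its call without virgin pool 2 (adjusted p = 0.147), virgin pool 3, pregnant pool 2 or pregnant pool 3.

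Oxysterol targets also fell more often than they rose in liver, 7 against 1 of 15, with a median of -0.25. Scd1, which desaturates fatty acids, fell by 1.30 ± 0.12, Abcg5, which exports sterols into bile, by 1.29 ± 0.10, and Srebf1, the regulator of fat synthesis, by 1.25 ± 0.10. Lpl, the lipoprotein lipase, rose by 1.48 ± 0.11. No gene of the list passed in lung, where Srebf1 had -0.47 (adjusted p = 0.0558) and Scd1 -0.28 (adjusted p = 0.42).

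Of 22 targets of the peroxisome proliferator-activated receptors, 4 rose and 3 fell in liver, and 4 rose in lung with none that fell. In liver Cyp4a14, a fatty acid hydroxylase, fell by 3.91 ± 0.29, from a mean of 8.68 to 4.77. Vnn1, a pantetheinase, rose by 2.08 ± 0.17, the fatty acid carrier Cd36 by 1.79 ± 0.12 and the hormone Fgf21 by 1.59 ± 0.37. In lung Angptl4, which blocks lipoprotein lipase, had risen by 1.56 ± 0.26 (adjusted p = 0.0202), and Pdk4, which spares glucose, by 1.38 ± 0.27 (adjusted p = 0.0369). The thioesterase Acot1 rose by 0.99 ± 0.19 and the peroxisomal thiolase Acaa1b by 0.67 ± 0.11. With probe sets of shared-sequence suffixes left out, Angptl4 had an adjusted p of 0.573. The lung count of 4 became 0 without virgin pool 3, 1 without virgin pool 2, pregnant pool 1 or pregnant pool 2, and 2 without virgin pool 1. Without virgin pool 2 the adjusted p was 0.102 for Angptl4 and 0.154 for Acot1, and without virgin pool 3 it was 0.167 for Pdk4 and 0.0824 for Acaa1b.

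Retinoid targets gave 1 gene that rose and 3 that fell in liver among 10, and 1 that fell in lung. Lrat, which stores retinol as esters and marks stellate cells, fell in both tissues by a like amount, 1.45 ± 0.11 in liver and 1.50 ± 0.11 in lung (adjusted p = 5.2e-07 and 1.3e-05). The difference between these was -0.05 (adjusted p = 0.91). Cyp26a1, which degrades retinoic acid and is induced by it, rose by 1.05 ± 0.21 in liver. Rarres1 fell by 0.81 ± 0.13 and Dhrs3, a retinal reductase, by 0.54 ± 0.09.

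Thyroid hormone targets gave 1 gene that rose and 3 that fell in liver among 13. The malic enzyme Me1 fell by 1.81 ± 0.11, the deiodinase Dio1 by 0.65 ± 0.19 and the amino acid and thyroid hormone transporter Slc16a10 by 0.40 ± 0.12. Tbc1d16 rose by 0.57 ± 0.13 (adjusted p = 0.171 with the mean of its probe sets). None passed in lung, where the smallest p were those of Atp2a1 (-0.38, adjusted p = 0.162) and Gpd2 (-0.33, adjusted p = 0.388). With 1 array left out, the adjusted p reached 0.156 for Dio1, without virgin pool 2, and 0.182 for Slc16a10, without pregnant pool 1. It was 0.0641 for Dio1 without both pool 3 arrays. The count of 4 became 2 without virgin pool 2 or pregnant pool 1.

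Of 20 glucocorticoid and mineralocorticoid targets, 5 rose and 2 fell in liver, with a median of 0.35, and 3 rose in lung with none that fell. Both receptors had fallen in liver. The metallothioneins Mt2 and Mt1, metal-binding proteins that glucocorticoids induce, rose by 1.82 ± 0.20 and 1.61 ± 0.16 in liver. The cell cycle inhibitor Cdkn1a rose by 1.26 ± 0.38 (adjusted p = 0.0422). Scnn1g, a sodium channel subunit, rose by 0.88 ± 0.14, from a mean below the mark (3.81) to just above it (4.69). In lung Fkbp5, a chaperone that glucocorticoids induce strongly, rose by 0.67 ± 0.10 (adjusted p = 0.0073), beside Angptl4 and Pdk4 given above. With the mean of all its probe sets Fkbp5 had 0.21 (adjusted p = 0.341). The lung count of 3 became 1 without virgin pool 2, virgin pool 3, pregnant pool 1 or pregnant pool 2, and Cdkn1a had an adjusted p of 0.163 without liver virgin pool 1 and 0.113 without both liver pool 3 arrays.

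Neutrophil markers were higher in pregnant animals beside these target counts. The summed linear signal of 8 such genes was 397.9 to 422 in virgin and 867.4 to 1115 in pregnant liver, where 3 rose and none fell, and 4994 to 7253 and 9268 to 17120 in lung, where 1 rose. S100a8 rose by 1.50 ± 0.19 in liver, and S100a9 by 1.28 ± 0.18 in liver and 1.07 ± 0.18 in lung. Mpo was below the mark in all 4 groups and Ltf in virgin liver. The part of these cells in the target counts was not tested.

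Vitamin D targets gave 2 genes that rose in liver among 7, Cdkn1a and Cyp24a1, the enzyme that degrades vitamin D. Cyp24a1 rose by 0.36 ± 0.11 (adjusted p = 0.0415; 0.0704 without both pool 3 arrays and 0.161 without virgin pool 2) at a level below the mark, like Vdr itself. The count of 2, in which Cdkn1a is shared with the corticoid list, became 0 without virgin pool 2 or pregnant pool 2, and 1 without any other liver array. Oestrogen and progesterone targets gave 5 that rose and 2 that fell in liver among 13. Fos, an immediate early gene described above, is counted among them, and Cyp7b1, an oxysterol hydroxylase, rose by 0.81 ± 0.14 and Cish, a cytokine signalling inhibitor, by 0.54 ± 0.14 (adjusted p = 0.077 without pregnant pool 2). Wnt4 fell by 0.70 ± 0.14. Neither list had a gene that passed in lung, where Cd14 had 0.46 (adjusted p = 0.0814), Cdkn1a 1.16 (0.246), Cyp7b1 -0.30 (0.516) and Cxcl12 0.28 (0.526).

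HNF4A targets gave 3 genes that rose and 3 that fell in liver among 19. Coagulation factor F7 rose by 1.51 ± 0.09 and apolipoprotein Apoc2 by 1.30 ± 0.22, while Slc10a1 and Baat, given above, fell. The count of 6 became 3 without virgin pool 1, virgin pool 2 or pregnant pool 3. Targets of Esrra and its relatives gave 4 that fell and none that rose among 11, with a median of -0.30: the mitochondrial enzymes Cs (-0.54 ± 0.11), Cox4i1 (-0.36 ± 0.09), Acadm (-0.33 ± 0.10) and Idh3a (-0.26 ± 0.08). That count ranged from 1 to 8 over the other settings, and was 1 without virgin pool 2 and 2 without virgin pool 1, virgin pool 3 or pregnant pool 2. With 1 array left out the adjusted p reached 0.0738 for Cox4i1, 0.126 for Acadm and 0.0876 for Idh3a, which passed in none of those fits. Without both pool 3 arrays it was 0.16 for Acadm and 0.12 for Idh3a. Neither list had a gene that passed in lung, where the smallest p were those of Apoc2 (0.79, adjusted p = 0.169), Apoa2 (0.34, 0.432), Cycs (0.22, 0.537) and Uqcrc1 (-0.18, 0.621).

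Of 27 coregulators, the proteins through which receptors act on chromatin, 1 rose and 4 fell in liver. Pprc1, a coactivator of the PGC-1 family, rose by 0.95 ± 0.15, and its relative Ppargc1b fell by 0.69 ± 0.10. The corepressor subunit Tbl1x fell by 0.55 ± 0.09 and Nrip1 (RIP140), a corepressor induced by oestrogen, by 0.52 ± 0.09. None passed in lung, where Tbl1x had -0.19 (adjusted p = 0.53) and Ep300 0.20 (0.546). Among 9 nuclear receptors beyond the 36, Nr2c2, a close relative of Nr2c1, fell in liver by 0.32 ± 0.09 (adjusted p = 0.0366; 0.14 without pregnant pool 2 and 0.614 with the mean of its probe sets). In lung the clock receptor Nr1d2 had -0.27 (0.655) and Esrrg 0.19 (0.663).

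**Figure D5:**
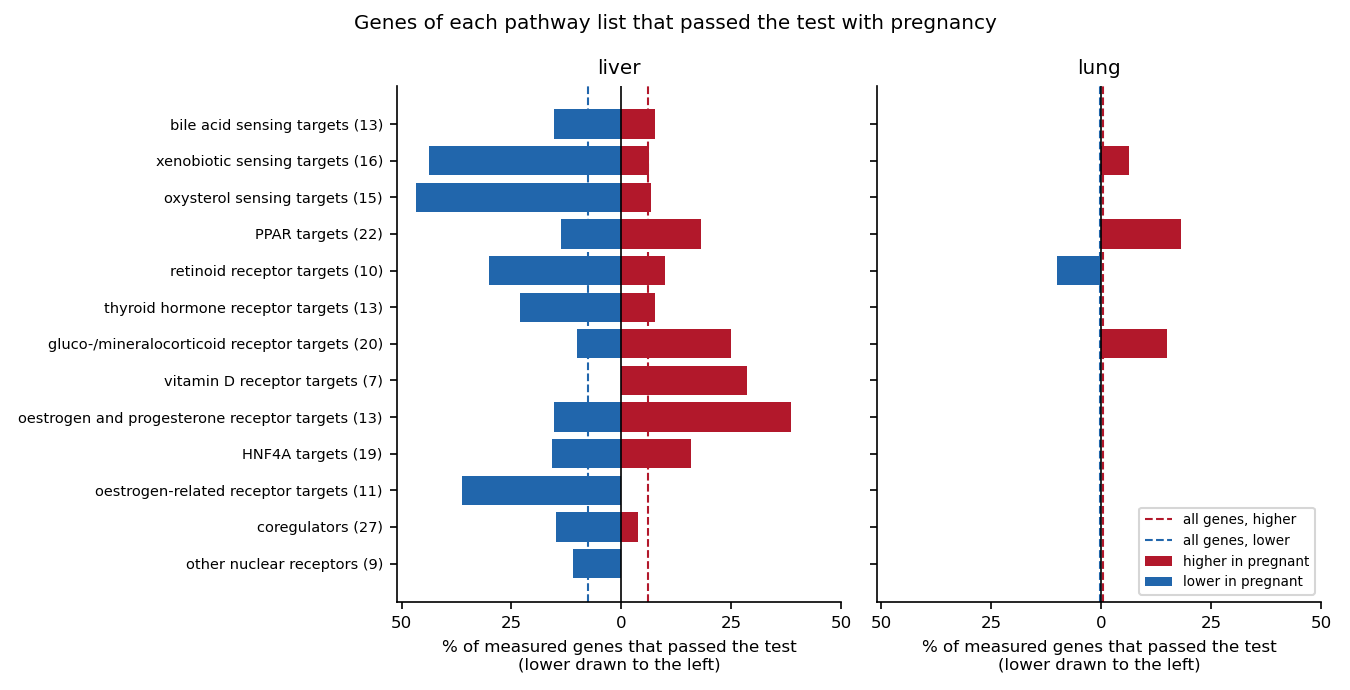
Share of the measured genes of each list that passed the test in liver (left) and lung (right), with genes higher in pregnant animals drawn to the right and lower ones to the left, and the share over all genes as dashed lines; the number of measured genes is in parentheses. Drug and oxysterol sensor targets extend mostly to the left in liver (7 of 16 and 7 of 15), and in lung the bars of the peroxisome proliferator-activated receptor targets and of the corticoid targets extend to the right.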

How the data were processed

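The authors deposited log2 values per probe set, made with RMA according to the submitters' processing notes, which also name affy. RMA corrects background, normalizes between arrays and summarises the probes of a set, so a level cannot be compared between probe sets, and dim values are compressed. Here 64 control probe sets were left out, apart from a check of the poly-A transcripts. Of the other 45037 probe sets, 34945 had a single gene symbol, 932 several and 9160 none, and the last 2 kinds were not tested. Each of 18193 genes was represented by its brightest probe set on average over the 12 arrays.

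The 12 arrays entered 1 fit with 4 group means, made in R 4.3.3 using limma 3.58.1 (8 residual and 5.6 prior degrees of freedom), with no filter on dim genes. It was tested on simulated data. P-values were adjusted by Benjamini-Hochberg over all genes, and an adjusted p under 0.05 counted as passed. Errors are standard errors, and intervals are 95%. Comparisons were pregnant against virgin in each tissue, the difference of those changes, and virgin lung against virgin liver. The 2 pregnancy comparisons and their difference share arrays.

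The receptors, their classes, the target lists and the tests were chosen with earlier results of these data known. Receptors past the threshold in a pregnancy comparison were given on every array. Of each list up to 4 genes past the threshold with the largest change were named per tissue, or up to 2 with the smallest p. Other receptors named with values were chosen after their values were seen. Alternatives changed the fit, probe set choice, normalization, threshold and arrays. Promoter sequences are those of RefSeq, GRCm38.p6.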

Additional observations from a re-analysis of the deposited data

Results flagged for a closer look

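For each gene here, the change with pregnancy differed between lung and liver by the limma test of that difference (adjusted p under 0.05). Among the receptors this was Rarb, at -0.61 (lung change minus liver change, log2). The other 29 were target or coregulator genes named above. Only the receptors and the genes named from the lists were looked at. The latter had been named for their change within a tissue, so their count cannot be set against the 6.71% of all genes that passed.

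A positive difference means a change that was lower in liver than in lung. Targets of the drug sensors with such a difference were Abcc3 (3.26), Cyp2b10 (1.42), Cyp2b13 (1.30) and Cyp2c29 (0.99), and of bile acid handling Slc10a1 (1.38). Lipid genes were Cyp4a14 (3.94), Pdk4 (2.02), Acaa1b (1.35), Abcg5 (1.08), Scd1 (1.02), Srebf1 (0.77) and Acadm (0.50). Me1, a thyroid hormone target, had 1.72, the retinoid targets Rarres1 and Dhrs3 had 0.84 and 0.59, and the coregulators Ppargc1b and Nrip1 had 0.63 and 0.48.

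A negative difference means a change that was higher in liver than in lung. The largest were those of Vnn1 (-1.81), Cd36 (-1.51), Cyp3a16 (-1.48), F7 (-1.44), Mt2 (-1.42), Mt1 (-1.31) and Lpl (-1.30). Smaller ones were those of Cyp26a1 (-1.27), Cyp7b1 (-1.11), Pprc1 (-0.83), Scnn1g (-0.78) and Tbc1d16 (-0.67). Some of these genes had changes of opposite sign in the tissues. Pdk4 had -0.64 in liver and 1.38 in lung, Acaa1b -0.68 and 0.67, and Slc10a1 -0.94 and 0.44. Cyp26a1 had 1.05 and -0.23 and Cyp7b1 0.81 and -0.30, and these were not the only ones. The lung changes of Slc10a1, Cyp26a1 and Cyp7b1 did not pass.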

How the results depend on the processing

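Of 4229 single-gene results under alternatives, 4000 kept their side of the threshold, and their direction where past it. Of the others 193 were no longer past it, 35 came to pass it and 1 reversed. Changes of sign were not counted where a gene passed in neither fit. The reversal was Nr4a2 between virgin tissues, 0.56 with the mean of all probe sets. Liver receptor calls went from 5 to 3 without both liver arrays lacking spike-in signal and to 1 at an adjusted p under 0.01, and ran from 2 to 6 with 1 array left out. The lung call became 0 with the lung arrays alone, with the mean of probe sets, with the replicate block, without both of those liver arrays and at 0.01, and ran from 0 to 1 with 1 array left out. The difference between tissues gave 3 with the mean of probe sets, 2 without probe sets of shared-sequence suffixes, and 0 with all probe sets, with arrays centred, with the replicate block, without both liver arrays and at 0.01, and ran from 0 to 2 with 1 array left out. The 28 calls between virgin tissues became 23 to 30, and 28 to 29 with 1 array left out; 25 receptors passed under every alternative that gave a value. Where more or fewer genes or arrays entered, the fit changed by construction; otherwise the cause was not tested. Of 520 list counts, 427 stayed near the main count and 93 moved further. Of the genes named from the lists as passed, 31 of 43 in liver and 2 of 7 in lung passed whichever array was left out. Under the other alternatives that gave a value, the smaller threshold apart, 30 of 43 and 1 of 7 passed throughout. The difference between tissues came to pass for Nr0b2 (0.95) without lung virgin pool 1, for Nr1i3 (1.03) without lung pregnant pool 3, and for Hnf4a (-0.44) and Nr2f2 (0.41) with the mean of probe sets. For Hnf4a it also passed without probe sets of shared-sequence suffixes (-0.80, adjusted p = 0.00518).

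Deviations from the group means were correlated between arrays of the same pool number. Virgin and pregnant pools, which held different mice, gave 0.108, -0.11 and 0.0918 in liver and -0.00631, 0.0155 and 0.096 in lung. Lung and liver pools gave -0.0369, 0.0592 and 0.106 in virgin and 0.0194, -0.0208 and 0.0176 in pregnant animals. No fit paired lung with liver pools, and whether they came from the same mice was not tested. With the pool as a replicate block within each tissue, 4 receptors passed in liver, where Nr3c2 had an adjusted p of 0.0517. In lung 0 passed, and Nr5a2 had 0.107. For Rarb the difference had 0.081. Depth is not defined for arrays, and values under 4.528, as for Vdr in liver and Nr5a2 in lung, limit what a fold change there can show.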
